A study of Mus musculus with 6 samples.

Results

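The fibrillin microfibril genes described here are the fibrillin genes Fbn1 and Fbn2, the latent TGF-beta binding protein genes Ltbp1 and Ltbp2, and the ADAMTS-like genes Adamtsl1 and Adamtsl3. They are 6 of 21887 protein-coding mouse genes. Chromatin accessibility was compared by ATAC-seq, which uses a transposase to cut and mark DNA that is open, between 3 libraries of FOP mutant fibroblasts and 3 of wild-type fibroblasts. The FOP mutant cells were heterozygous for an altered type I BMP receptor (Acvr1R206H/+), the change that underlies fibrodysplasia ossificans progressiva (FOP), a disorder in which bone forms in soft tissue. The wild-type cells carried normal copies of the receptor gene on both chromosomes (Acvr1+/+). Both were mouse embryonic fibroblasts, a mixed culture of connective tissue cells, taken from E13.5 embryos and grown in medium with serum and antibiotics. The labels name no added ligand, drug or transgene for either genotype. The labels do not say how many embryos or litters the libraries of a genotype came from, nor whether the mutant allele was conditional.

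The authors' deposited tables list 2965 regions that were more accessible and 556 that were less accessible in FOP mutant than in wild-type cells, 84.2% and 15.8% of 3521 regions. The lists give only a position and a direction for each region. No signal, read count, fold change or p-value is given per library, so the depth and the spread between the 3 libraries of a genotype are unknown. A region was linked to a gene when its midpoint lay inside the gene's GRCm38 span, or when it lay outside all protein-coding spans and this gene was the nearest within 100 kb. In this way 23 regions, 0.776% of the more accessible list, belonged to the 6 genes. The genes were chosen by the number of regions these lists hold near them. Their counts are therefore a description with no test, and no test against the spread between replicates was possible. Fibroblast identity could not be checked on levels, since the lists hold none. Of 10 fibroblast marker genes only Prrx1, a mesenchymal transcription factor gene, had a listed region, with 2 more accessible ones. Over all protein-coding genes 7.27% had a more accessible region and 1.99% a less accessible one, so nothing is read from this count. A change within the same cells and a change in the mix of cells in the culture cannot be told apart in these lists.

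Fibrillins are large, cysteine-rich glycoproteins that assemble head to tail into microfibrils, the thin threads of the extracellular matrix that also scaffold elastic fibres. Latent TGF-beta binding proteins attach to these threads, and most of them hold TGF-beta in its inactive form there, while fibrillins bind the prodomains of several BMPs. ADAMTS-like proteins resemble the ADAMTS proteases but have no protease domain, and several members of the family bind fibrillin. Mutations of FBN1 in humans cause Marfan syndrome and, at other sites of the protein, stiff skin syndrome and short stature disorders.

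All 23 regions linked to the 6 genes were more accessible in FOP mutant cells and 0 were less accessible. Since these counts chose the genes, nothing is read from the direction. Each of the 6 genes had at least 1 such region, whereas 7.27% of all protein-coding genes were linked to a more accessible region and 1.99% to a less accessible one. The ADAMTS-like genes held 11 of the 23, the fibrillin genes 8 and the LTBP genes 4. Of the 23 regions, 17 lay inside a gene span and 6 outside. Both fibrillins had regions beyond their lower-coordinate end, 5 of 8 in all, while the LTBP regions all lay inside the genes. These genes are long, with a median span of 242 kb, against 17.2 kb over all protein-coding genes. Among the 2567 genes whose span lies between those of Ltbp2 and Adamtsl1, the shortest and the longest of the 6, 29.6% had a more accessible region, 4.67% had 3 or more as 5 of the 6 did, and 6.12% had a less accessible one.

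**Figure D1:**
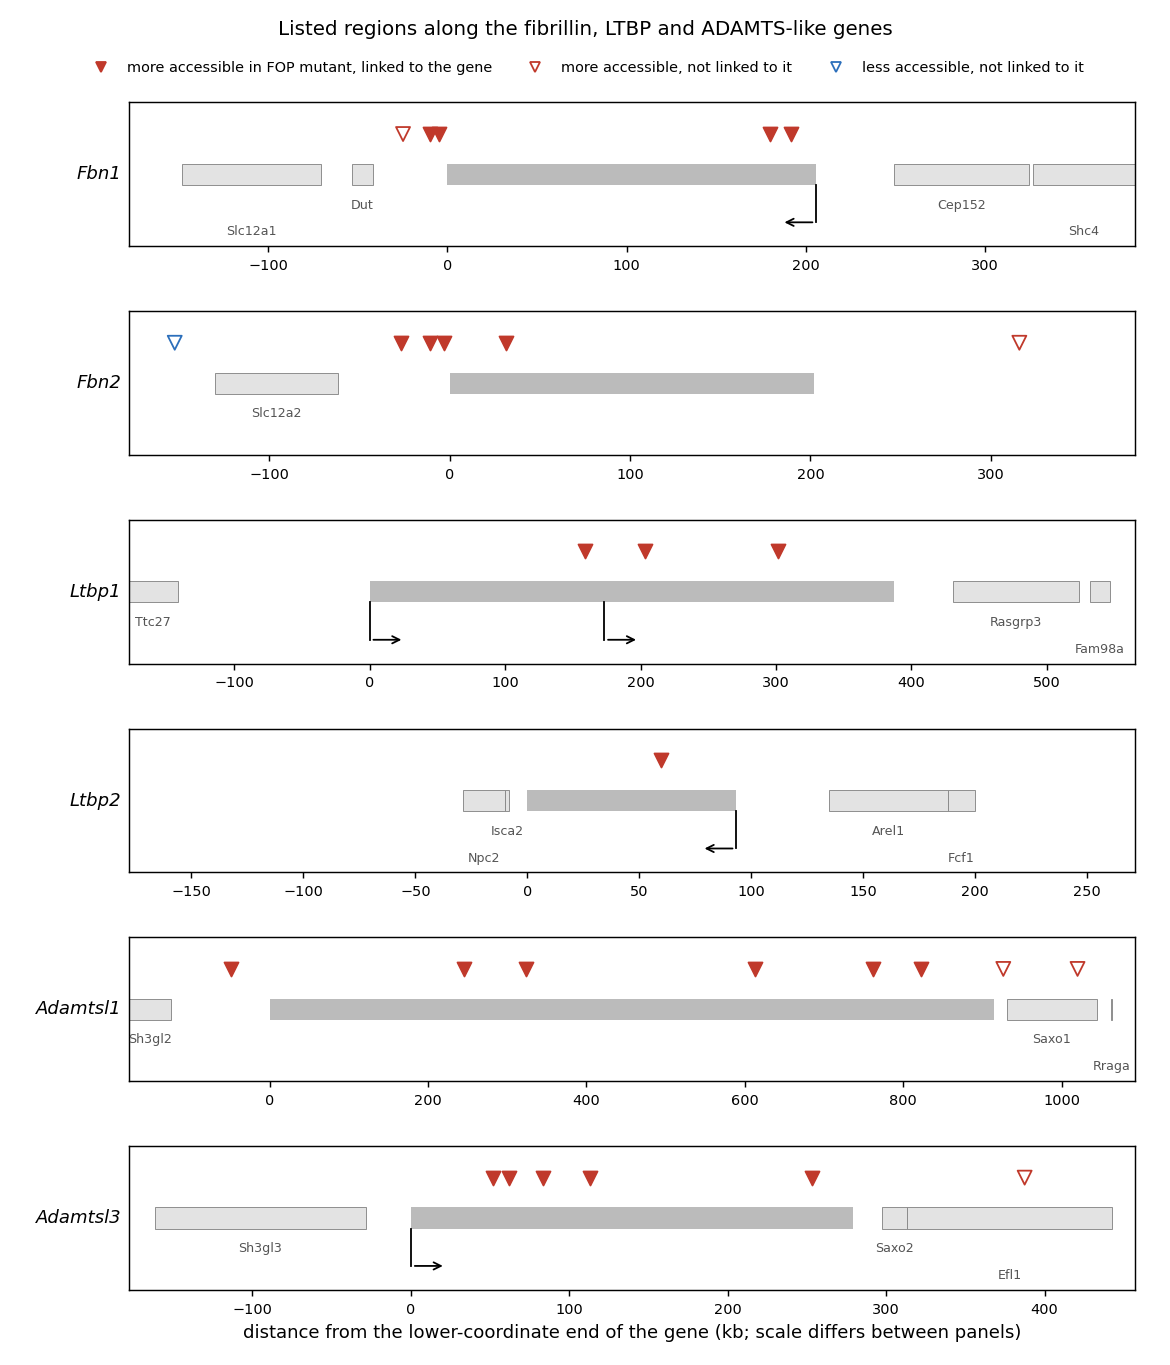
Position of the listed regions along the 6 genes, as distance in kb from the lower-coordinate end of each gene, with a separate scale per panel. Dark bars are gene spans, light bars the 2 nearest protein-coding genes on each side where they fall in view, arrows the RefSeq transcription starts (not drawn for Fbn2 and Adamtsl1), filled triangles the 23 linked regions and open triangles other listed regions. The 5 fibrillin regions outside the spans sit left of the bars, and no filled triangle is at an arrow.

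The sequences upstream of the transcription starts are shown because the starts are the reference points for the distances that follow. RefSeq windows of GRCm38.p6 were at hand for 4 of the 6 genes, 5 starts in all, and 0 listed regions overlapped any of these windows. Each sequence is the 250 bases before the start, written on the strand of the gene. They lie at chr2:125506439-125506688 (minus strand) for Fbn1, chr17:75005279-75005528 and chr17:75178531-75178780 (plus strand) for the first and second start of Ltbp1, chr12:84876492-84876741 (minus strand) for Ltbp2, and chr7:82335444-82335693 (plus strand) for Adamtsl3. Capitals mark the SMAD box, searched as CAGAC on both strands, and the RUNX motif, searched as TGTGGT on both strands.

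Fbn1: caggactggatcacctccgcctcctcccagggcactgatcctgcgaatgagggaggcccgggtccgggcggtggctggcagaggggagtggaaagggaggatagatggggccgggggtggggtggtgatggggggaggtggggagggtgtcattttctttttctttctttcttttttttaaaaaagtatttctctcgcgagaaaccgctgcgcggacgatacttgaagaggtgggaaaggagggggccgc
Ltbp1 first start: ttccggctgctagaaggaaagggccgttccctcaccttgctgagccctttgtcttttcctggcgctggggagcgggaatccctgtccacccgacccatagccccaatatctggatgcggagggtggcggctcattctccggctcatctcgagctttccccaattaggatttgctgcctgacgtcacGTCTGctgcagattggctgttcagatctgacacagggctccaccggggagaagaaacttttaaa
Ltbp1 second start: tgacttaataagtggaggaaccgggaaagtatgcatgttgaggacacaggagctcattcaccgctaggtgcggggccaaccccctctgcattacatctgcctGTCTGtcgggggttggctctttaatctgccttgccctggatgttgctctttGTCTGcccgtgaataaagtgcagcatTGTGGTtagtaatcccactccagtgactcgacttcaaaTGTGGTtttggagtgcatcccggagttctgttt
Ltbp2: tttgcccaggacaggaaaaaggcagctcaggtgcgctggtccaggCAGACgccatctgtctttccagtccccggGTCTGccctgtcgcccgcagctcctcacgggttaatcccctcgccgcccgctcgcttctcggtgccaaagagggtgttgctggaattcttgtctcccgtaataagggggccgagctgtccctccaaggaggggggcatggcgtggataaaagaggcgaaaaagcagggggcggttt
Adamtsl3: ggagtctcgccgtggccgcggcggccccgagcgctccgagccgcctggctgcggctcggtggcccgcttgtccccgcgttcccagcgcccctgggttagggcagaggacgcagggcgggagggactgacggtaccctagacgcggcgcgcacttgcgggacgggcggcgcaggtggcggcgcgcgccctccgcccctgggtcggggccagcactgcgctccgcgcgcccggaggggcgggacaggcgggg

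The windows differ in base composition. That of Adamtsl3 was 80.0% G and C with 39 CpG dinucleotides, higher in GC than 98.8% of the 32851 RefSeq windows, whose median was 52.4% with 6 CpG. Fbn1 had 59.2% and 13 CpG, and Ltbp2 had 61.6% and 16 CpG. The first start of Ltbp1 had 56.8% and 12 CpG. Its second start, which serves the short form of the protein, had 50.8% and 7 CpG, near the median of all windows. The SMAD box, a short element bound by receptor-activated SMADs, was present once before the first start of Ltbp1 (64 to 60 bases upstream). It was present at 2 places before the second (148 to 144 and 97 to 93) and at 2 before Ltbp2 (205 to 201 and 176 to 172). It was not in the windows of Fbn1 and Adamtsl3, and 42.2% of all windows hold it. The RUNX motif occurred only before the second start of Ltbp1 among the 5 windows, at 2 places (71 to 66 and 33 to 28), and in 14.0% of all windows. The E-box, searched as CANNTG, was found at 2 places each before Adamtsl3, Ltbp2 and the second Ltbp1 start, and in 66.2% of all windows. The E-box nearest to the second Ltbp1 start (37 to 32) overlaps the RUNX motif there. No match was found in the 5 windows for TGANTCA (AP-1, in 6.75% of all windows), GGCGCC (the GC-rich BMP-SMAD element, 9.59%), GGAATG (TEAD, 12.6%) or CTTTGA (TCF/LEF, 13.8%). These matches are letters in a window and not evidence of binding.

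Fbn1 encodes fibrillin-1, the main fibrillin of postnatal tissue. The gene lies on chromosome 2 from 125300594 to 125506485 on the minus strand, so that its start is at the higher coordinate, 125506438. It had 4 regions, in 2 pairs near opposite ends of the gene. Inside the gene, the region from 125492143 to 125492942 was centred 13.9 kb downstream of the start and that from 125480050 to 125480835 26.0 kb downstream of it, 12.1 kb apart. Past the 3′ end of the gene lay the regions from 125295448 to 125295908 and from 125290355 to 125291015, 4.92 kb and 9.91 kb outside the span and 4.99 kb from each other. No listed region fell in the 185 kb between the pairs. The annotation used gives no exons, so whether the inner pair is intronic is not stated here.

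Another more accessible region followed the outer pair of Fbn1 (125275594 to 125275993). It was 24.8 kb from Fbn1 but 16.7 kb from Dut, the dUTPase gene, and so was not counted. It stands just outside the rule, while the 9.91 kb region stands inside it. From 500 kb before to 500 kb after Fbn1 there were 7 more accessible regions, its own 4 included, and 0 less accessible ones. Over the whole lists 84.2% of regions were more accessible.

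Fbn2 encodes fibrillin-2, which is made mainly in the embryo. The gene spans 202 kb on chromosome 18, from 58008623 to 58210572, close to the 206 kb of Fbn1. It also had 4 regions, but 3 of them lay outside the gene, all beyond its lower-coordinate end. They ran from 58004806 to 58005621, from 57997039 to 57998061 and from 57981340 to 57982164, and were 3.41 kb, 11.1 kb and 26.9 kb from the span. The only region inside Fbn2 (58039644 to 58039960) was 31.2 kb from the same end. All 4 midpoints thus fell within 58.0 kb, whereas those of Fbn1 were spread over 202 kb.

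No linked region lay in the remaining 171 kb of Fbn2 up to its higher-coordinate end. The next more accessible region on that side (58324053 to 58324950) was 114 kb away, past the 100 kb limit, and belonged to no gene under the rule. With no limit on distance it became an additional region of Fbn2, which then had 5. The nearest less accessible region was 152 kb from Fbn2 on the other side (57855818 to 57856473) and was linked to Slc12a2, a sodium, potassium and chloride cotransporter gene. Within 500 kb of Fbn2 on both sides there were 6 more accessible regions, its own 4 included, and 1 less accessible region. A gene of the Slc12 family lies on the lower-coordinate side of both fibrillin genes, Slc12a1 at 70.6 kb from Fbn1 beyond Dut, and Slc12a2 at 61.8 kb as the next gene to Fbn2. In both loci the outside regions within the 100 kb limit lie on that side, and the genes on the other side differ. Whether the place of the regions is related to these neighbours was not tested.

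Ltbp1 encodes a protein that binds the TGF-beta propeptide and tethers it to the matrix, and it is made in a long and a short form from separate starts. The gene spans 387 kb on chromosome 17, from 75005480 to 75392512 on the plus strand, with starts at 75005529 and 75178781. It had 3 regions, all inside the span and all in the part around and after the second start. The first (75164523 to 75164954) was 159 kb downstream of the first start and 14.0 kb upstream of the second. The next 2 (75208241 to 75208660 and 75306870 to 75307549) were 29.7 kb and 128 kb downstream of the second start. No region lay in the first 159 kb of the gene.

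The Ltbp1 locus had no other listed region of either direction within 500 kb of the gene. The region upstream of the second start lay 0.438 kb from the annotated pseudogene Gm6276 and did not overlap it.

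Ltbp2 encodes the family member that binds fibrillin-1 but, unlike Ltbp1, not latent TGF-beta. Its span of 93.3 kb on chromosome 12 (84783212 to 84876558, minus strand) is the shortest of the 6. It had 1 region (84842819 to 84843114), 33.5 kb downstream of the start and, at 296 bp, the narrowest of the 23. Within 500 kb of Ltbp2 on both sides there were 5 more accessible regions, its own 1 included, and 1 less accessible region. The less accessible region lay inside Tmed10, 486 kb from Ltbp2. The other LTBP genes, Ltbp3 (17.6 kb) and Ltbp4 (34.6 kb), are shorter and had 0 regions of either direction.

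Adamtsl1 encodes punctin, a secreted matrix glycoprotein. The gene covers 915 kb on chromosome 4, from 85513852 to 86428390, and had 6 regions, 5 of them inside it. These 5 lay 245, 324, 613, 762 and 822 kb from the lower-coordinate end. They ran from 85758150 to 85759263, from 85837122 to 85838083, from 86126355 to 86126924, from 86276024 to 86276384 and from 86335916 to 86336703. The gaps between these neighbours were 78.9, 289, 150 and 60.1 kb.

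The outside region of Adamtsl1 (85464861 to 85465661) was 48.6 kb beyond the lower-coordinate end, the largest distance among the 6 outside regions. At the other end, a more accessible region (86439698 to 86440742) 11.8 kb from Adamtsl1 was nearer to Saxo1, a gene of a microtubule-associated protein, at 4.21 kb, and was not counted. Saxo1 had a second more accessible region inside it. Within 500 kb of Adamtsl1 on both sides there were 9 more accessible regions, its own 6 included, and 0 less accessible ones.

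Adamtsl3 encodes a close relative of punctin. It spans 279 kb on chromosome 7 (82335399 to 82614450, plus strand), and all 5 of its regions lay inside the gene and downstream of its start at 82335694. The first 4 formed a row of 61.1 kb in the first part of the gene, at 51.6, 61.5, 82.9 and 113 kb from the start. They ran from 82386690 to 82387872, from 82397001 to 82397481, from 82418401 to 82418799 and from 82448177 to 82448614, with gaps of 9.96, 21.4 and 29.8 kb. The fifth (82588597 to 82589238) lay 141 kb farther on, 25.5 kb before the end of the span. Counting only regions inside the span, the density per 100 kb of span was 1.79 for Adamtsl3, 1.07 for Ltbp2, 0.971 for Fbn1, 0.775 for Ltbp1, 0.547 for Adamtsl1 and 0.495 for Fbn2. The Ltbp2 value rests on 1 region. Over genes with 0.5 to 2 times each gene's span, this density ranged from 0.128 (Ltbp2) to 0.189 (Adamtsl3 and Ltbp1). The 6 genes were chosen by their region counts, so nothing is read from that difference. With the linked outside regions added, Fbn2 (1.98) and Fbn1 (1.94) came above Adamtsl3 (1.79), so the order depends on that choice.

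Within 500 kb of Adamtsl3 on both sides there were 9 more accessible regions, its own 5 included, and 2 less accessible ones. Less accessible regions came no nearer to Adamtsl3 than 296 kb, where a pair was linked to Bnc1, the basonuclin 1 gene. The pair lay 37.5 and 46.9 kb outside Bnc1. The neighbours of the ADAMTS-like genes are also related to each other. Adamtsl1 lies between Sh3gl2 and Saxo1, and Adamtsl3 between Sh3gl3 and Saxo2. Neither Sh3gl2 nor Sh3gl3, which encode endophilins, nor Saxo2 had a linked region of either direction.

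Gene length bears on these counts, so each gene was set beside the genes with 0.5 to 2 times its span. The 6 genes were chosen by these same counts. The shares that follow are therefore a description and no test, and nothing is read from their size. For Adamtsl3 these were 1398 genes with a mean of 0.607 more accessible regions, and 12 of them (0.858%) had 5 or more. For Fbn1 the mean over 2008 genes was 0.460, and 25 (1.25%) had 4 or more. For Fbn2 it was 0.455 over 2052 genes, of which 26 (1.27%) had 4 or more. Adamtsl1 had 262 such genes with a mean of 1.08, and 4 (1.53%) had 6 or more. The shares were larger for the LTBP genes. For Ltbp1 86 of 926 genes (9.29%) had 3 or more, and for Ltbp2 612 of 4149 (14.8%) had 1 or more. Over all protein-coding genes, 0.722% had 3 or more more accessible regions, 0.283% had 4 or more, 0.123% had 5 or more and 0.0411% had 6 or more. The count rests on the link for some genes: with regions inside the span alone Fbn1 kept 2 and Fbn2 1, and with each region given to the nearest gene end within 100 kb Ltbp1 kept 1 and Adamtsl1 2.

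**Figure D2:**
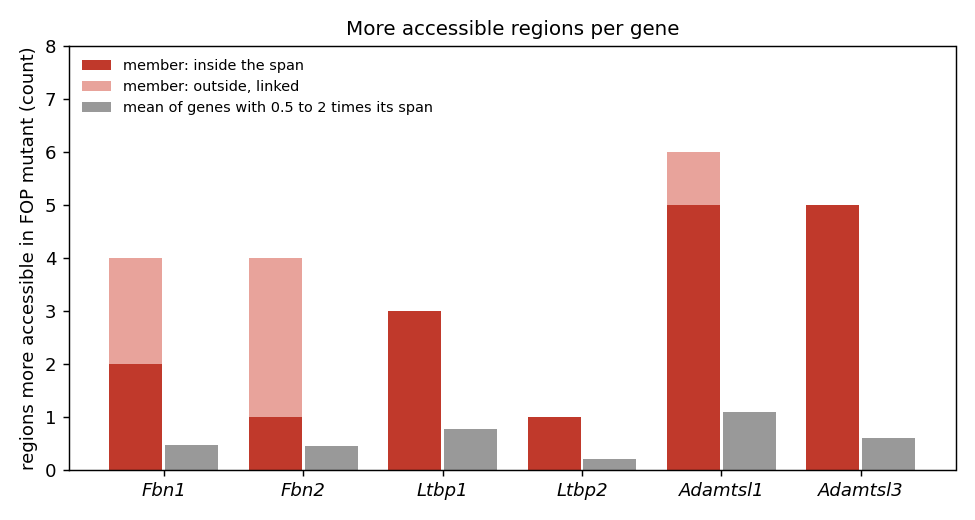
Regions more accessible in FOP mutant cells per gene (count), split into inside and outside the span, beside the mean over genes with 0.5 to 2 times the same span (grey). The 6 genes have 1 to 6 regions, and the grey means lie between 0.194 for Ltbp2 and 1.08 for Adamtsl1. The 6 genes were chosen by these counts, so the gap to the grey bars is no test.

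By the pattern of counts (more accessible inside, more accessible outside, less accessible) and the nearest span length, the genes most like each member were as follows. Fbn1 shared its counts of 2, 2 and 0 with 4 genes, of which Abi3bp (212 kb) and Map4k3 (148 kb) were closest in span. Fbn2 shared 1, 3 and 0 with Ldb2 (364 kb) and Stx18 (101 kb). Adamtsl1 shared 5, 1 and 0 with Robo2 (1555 kb) and Bbs9 (413 kb). For Adamtsl3, with 5, 0 and 0, 11 genes matched, led by Mylk (257 kb) and Ror2 (177 kb). Ltbp1 (3, 0 and 0) had 42 matches, led by Babam2 (387 kb), and Ltbp2 (1, 0 and 0) had 556, led by Ube2h (93.3 kb) and Cnksr3 (93.2 kb).

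The 23 regions spread over most of the range of widths in the list. They measured 296 to 1183 bp with a median of 661 bp and a mean of 663 ± 259 bp (SD over 23 regions), against a median of 572 bp and a mean of 619 ± 242 bp (SD over 2965 regions) in the whole more accessible list. The 6 regions outside the genes had a median of 808.5 bp (461 to 1023 bp) and the 17 inside 570 bp (296 to 1183 bp), ranges that overlap. The widest were the first region of Adamtsl3 at 1183 bp, the first inside Adamtsl1 at 1114 bp and the middle outside region of Fbn2 at 1023 bp. Those of Ltbp1 were 420 to 680 bp. By the quartiles of the list, 10 of the 23 were above its middle range of 439 to 762 bp, 6 within it and 7 below. The width of a region is the authors' interval and not a size of effect.

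**Figure D3:**
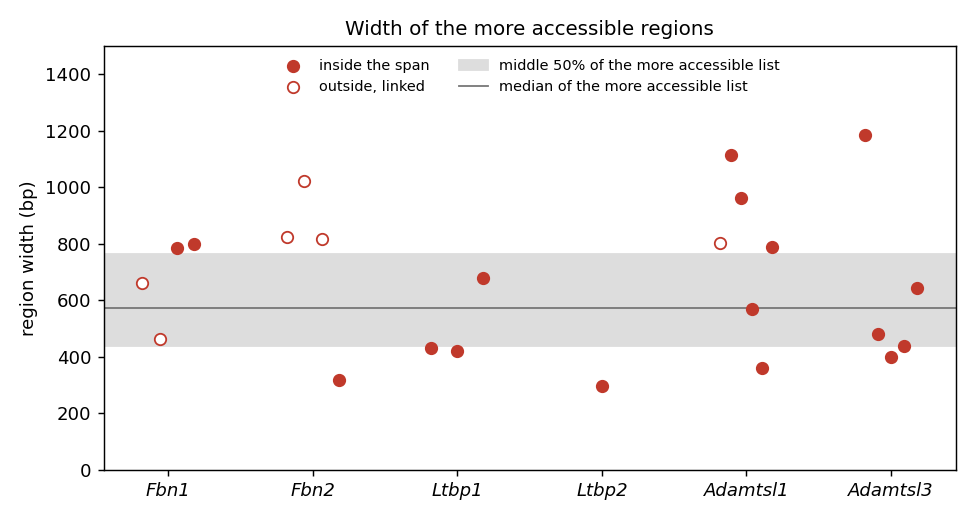
Width in bp of each of the 23 regions by gene, filled inside the span and open outside it, ordered by position within a gene. The band and line give the middle range (439 to 762 bp) and the median (572 bp) of the 2965 more accessible regions; 10 of the 23 points lie above the band, 6 in it and 7 below, and the 3 Fbn2 regions outside the gene are all above it.

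No region lay at a transcription start where starts were at hand, and only 13 of the 23 could be measured to a start of their own gene. Of the 19 regions on chromosomes with starts at hand, 0 had a midpoint within 1 kb of any of these starts, against 1.51% of 2846 more accessible regions. The 19 regions belong to a few genes and are too few to set 0 apart from that share. The nearest was the inner Fbn1 region at 13.9 kb, and the median distance was 61.5 kb, against 41.2 kb in the list. Starts were not at hand for chromosome 18, which holds Fbn2, nor for Adamtsl1 itself. The distances of the Adamtsl1 regions are to starts of other genes, 222 to 632 kb away, and they enter the median. Of the regions, 6 of 23 (26.1%) had another more accessible region within 10 kb, midpoint to midpoint, against 345 of 2965 (11.6%) in the list. These 6 were the outer pair of Fbn1, a pair of Fbn2 and the first pair of Adamtsl3. Genes chosen by their number of listed regions can be expected to hold regions nearer to each other through that choice. Regions near each other are also not independent. The difference between 26.1% and 11.6% was not tested, and nothing is read from it. The share inside a gene was 73.9% of 23, against 58.7% of the 2290 more accessible regions linked to any gene. The 6 genes are longer than most, and this share was neither tested nor set beside genes of like length.

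Beside the 6 genes, 70 other microfibril, elastic fibre and latent TGF-beta genes had 29 linked regions, of which 86.2% were more accessible, against 84.2% of the whole lists. Of the 70 genes, 19 (27.1%) had a more accessible region and 4 (5.71%) a less accessible one, 25 and 4 regions, with Smad3 in both and 48 genes in neither. These genes too are longer than most, with a median span of 33.9 kb. At spans of 50 kb or more, 12 of 29 (41.4%) had a more accessible region, against 21.4% of all genes of that length. Under 50 kb it was 7 of 41 (17.1%), against 3.16%. The regions of these 7 genes all lay outside the spans, 3.55 to 76.5 kb away. Such links also depend on the space around a gene, which the split by span does not allow for. For less accessible regions the counts were 3 of 29 (10.3%, against 4.63%) and 1 of 41 (2.44%, against 1.22%). The list was drawn up with earlier results of these data known, and no test was made on it.

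Among the relatives of Adamtsl1 and Adamtsl3, Thsd4 (ADAMTSL6), which promotes fibrillin-1 assembly, had 3 more accessible regions inside its 555 kb span on chromosome 9. They ran from 60002057 to 60002752, from 60138689 to 60140066 and from 60445635 to 60446403. The midpoint of the second lay 1.84 kb downstream of the inner of its annotated starts. Adamtsl2, Adamtsl4, Adamtsl5 and Papln, with spans of 9.24 to 32.1 kb, had 0 regions of either direction. Of the microfibril-linked proteases, Adamts17 had 2 more accessible regions on chromosome 7, 1 inside and 1 at 15.7 kb outside, Adamts6 had 1 at 46.5 kb, and Adamts10 had 0.

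Among the structural partners, Mfap5, a microfibril-associated glycoprotein gene, had 1 more accessible region 8.14 kb outside it on chromosome 6 (122505143 to 122505748), while its relatives Mfap2 and Mfap4 had 0. Eln, the elastin gene, had 1 at 29.3 kb on chromosome 5. Fn1, for fibronectin, on which fibrillin assembly depends, had 1 at 27.1 kb on chromosome 1, and Dcn, for the proteoglycan decorin, 1 at 23.8 kb. Mmrn1, which encodes multimerin 1 of the EMILIN family, and Mfap3l had 1 each, at 6.66 and 3.90 kb. The fibulin genes Fbln1, Fbln2, Fbln5, Fbln7, Efemp1 and Efemp2 and the 5 lysyl oxidase genes, Lox and Loxl1 to Loxl4, had 0 of either direction. Hspg2, which encodes perlecan, had 1 less accessible region inside it (chromosome 4, 137498348 to 137498670).

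On the signalling side, the ligand genes Tgfb1, Tgfb2 and Tgfb3, whose products the LTBPs hold, had 0 regions. Bmp5 had 2 more accessible regions, 1 inside and 1 at 7.88 kb, and Bmp2 and Bmp4, other ligands of the BMP receptors, had 1 each at 3.55 and 76.5 kb. Bmp7, Bmp10 and Gdf5 had 0 of either direction. Of the integrin subunit genes whose products activate latent TGF-beta, Itgb6 and Itgb8 had 1 more accessible region each, at 14.8 and 13.0 kb. Itgb3 had 1 less accessible region inside it (chromosome 11, 104631347 to 104631739). With 1 region per gene, and 15.8% of all listed regions less accessible, nothing is read from the directions. The subunit genes Itgav, Itgb1 and Itgb5 had 0 of either direction. Itga8, for a receptor subunit that binds the RGD sequence of matrix ligands, had 3 more accessible regions, all inside. Furin, the protease that trims fibrillins and TGF-beta precursors, had 1 less accessible region 14.0 kb outside it, and its relative Pcsk6 had 1 more accessible region inside. Of the receptor and SMAD genes, Tgfbr2 and Smad2 had 1 more accessible region each, at 34.7 and 34.6 kb, and Tgfbr1 and Tgfbr3 had 0 of either direction. Smad3 had 1 less accessible region inside it and 1 more accessible at 60.4 kb.

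**Figure D4:**
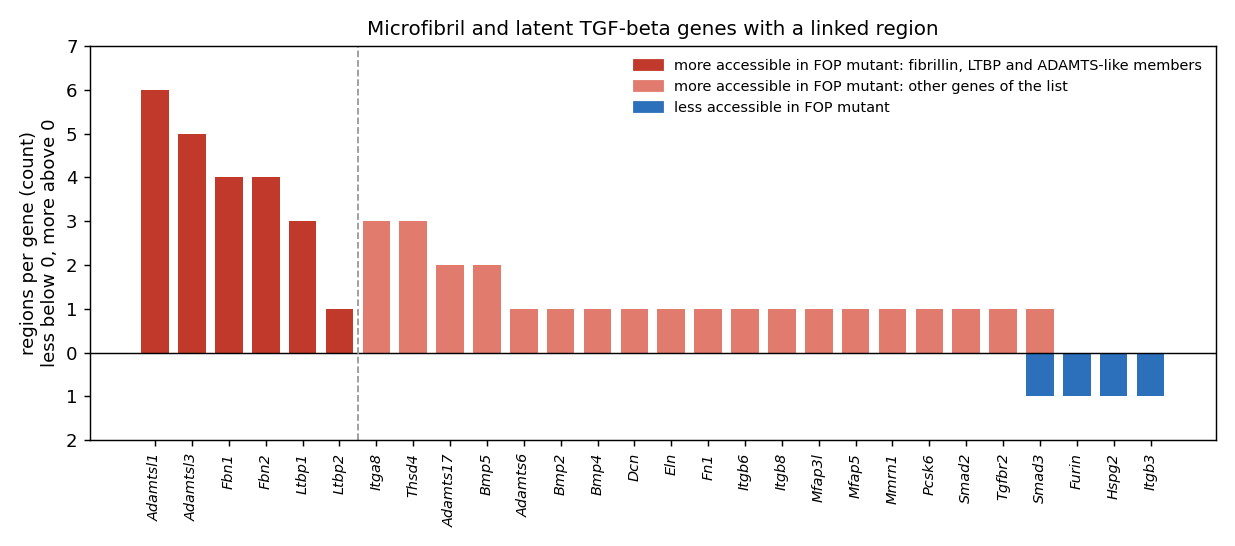
Number of listed regions linked to each gene of the microfibril and latent TGF-beta list that has any, more accessible above 0 and less accessible below. Left of the dashed line stand the 6 fibrillin, LTBP and ADAMTS-like genes with 1 to 6 more and 0 less accessible regions, right of it the 22 other genes, of which 4 have a less accessible region.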

How the data were processed

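ATAC-seq libraries of 3 FOP mutant and 3 wild-type mouse embryonic fibroblast samples were compared by the authors. Per the submitters' processing notes, the tools were MACS2, featureCounts, DESeq2, Trimmomatic, SAMtools, Bowtie2 and bedtools, with the builds mm10 and GRCm38. Their parameters and versions, the list cutoff, duplicate and transposase-offset handling, and any pooling of libraries before peak calling are not stated in the sources used. The deposited lists hold base pair positions (BED, start counted from 0), written here counted from 1. The direction comes from each list's name.

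Spans and promoter windows came from RefSeq (GRCm38.p6). The gene table has no strand; starts and strands were taken from the promoter table, in which no window was at hand for Fbn2 and Adamtsl1. Where a midpoint lay in several spans, every gene was linked. Python 3.11.15, pandas 2.3.3 and matplotlib 3.10.9 were used, and linking was checked on simulated regions. No test was run, since no file holds values per library.

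The genes, the list of partners and the rules were chosen with earlier results of these data known. Named were the 6 genes, list genes with a region, paralogs, neighbouring genes and genes of like counts, of which 1 is not reported here. Other list genes named at 0 were chosen after their values were seen. The closing section gives 7 alternative ways of linking.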

Additional observations from a re-analysis of the deposited data

How the results depend on the processing

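Under 7 alternative ways of linking, the 6 genes had 16 to 24 more accessible regions in all (23 as described) and 0 less accessible ones, and each of the 6 had at least 1. The genes were chosen by their regions in these same lists. These totals are therefore no independent check, and nothing is read from the 0. The total was 20 with a window of 10 kb, 17 inside spans alone, 24 at any distance, 16 by the nearest gene end, 20 with regions within 10 kb merged, and 23 both with all annotated genes competing and with any overlap counted as inside. Of the 42 more accessible counts by gene and setting, 37 stayed within 1.5 times and 5 did not: Fbn1 with 2 and Fbn2 with 1 inside spans alone, Fbn2 with 2 in the 10 kb window, and Ltbp1 with 1 and Adamtsl1 with 2 by the nearest gene end.

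No paired analysis was possible because the lists carry no values per library; for the same reason no library was left out, and no stricter cutoff was set, as regions carry no score. The depth behind each region is unknown, so a gene without a listed region is not shown to be unchanged.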
